A study of Mus musculus with 22 samples.

Results

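The 9 genes described here, Wt1, Tbx18, Tcf21, Upk3b, Upk1b, Aldh1a2, Msln, Krt19 and Lrrn4, are markers of the epicardium. They were chosen by name as genes known from that cell layer, with earlier results of these data known. They are 9 of the 48709 genes in the count tables. RNA from ventricles of mouse embryos at E13.5 was sequenced after deletion of Lin9, which encodes a core subunit of the MuvB complex of cell cycle gene regulation, alone or together with Sav1, which encodes the Hippo pathway scaffold Salvador. All 6 groups carried Nkx2.5-Cre, which drives recombination in cardiac precursors, on a C57/Bl6 background, and each group held 3 libraries. In the first experiment LIN9 knockout (LIN9 KO) hearts, Lin9 fl/fl, were set against comparison hearts with wild-type LIN9. In the second experiment the 4 groups were control hearts with wild-type LIN9 and Sav1 +/+, hearts with Lin9 fl/fl and Sav1 +/+ (LIN9 KO), hearts with wild-type LIN9 and Sav1 fl/fl (Sav1 KO), and hearts with both genes floxed on both alleles (LIN9 and Sav1 KO). In both experiments wild-type LIN9 is the term of the labels for hearts that the study's text describes as Lin9 fl/+, so that a floxed Lin9 allele was exposed to the Cre there too.

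The epicardium is a sheet of mesothelial cells that covers the outer surface of the heart. During development some of its cells lose their epithelial character, move inwards and give rise to cardiac fibroblasts and to mural cells of the coronary vessels. The layer also makes retinoic acid and takes part in an exchange of growth factors with the myocardium beneath it.

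Total counts ranged from 9485599 to 9615274 per library in the first experiment, with a median of 9539905, and from 2770741 to 2999877 in the second, with a median of 2935363. Levels are given as CPM, the usual scaling of a gene's counts to its library size, with library sizes normalized by edgeR's trimmed mean of M-values (TMM). The labels do not say that replicates came from separate animals, so the p-values measure the spread between these samples. The study's methods describe RNA isolated in triplicates. A supplementary caption describes the LIN9 KO comparison as 2 biological replicates, with triplicates in each. Whether the 3 libraries of a group came from separate animals is not stated there. Among the LIN9 KO libraries of the second experiment, replicate 3 stood apart: over all genes the chi-square per degree of freedom was 19.5 against replicate 1 and 13.8 against replicate 2, where replicates 1 and 2 differed by 5.81. In the other groups this measure ran from 1.2, between replicates 2 and 3 of the control hearts of the second experiment, to 24.1, between LIN9 KO replicates 1 and 3 of the first. Without LIN9 KO replicate 3 of the second experiment, the same count of 8 members passed the test for LIN9 loss with intact Sav1, and the median log2 fold change of the 9 was 1.08 in place of 1.14.

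Lin9 itself, counted over the whole gene of which the floxed allele removes only a part, stood at 29.8, 21.4 and 25.6 CPM in the comparison libraries of the first experiment and at 21.4, 21.3 and 19.2 CPM in the LIN9 KO libraries. In the second experiment it measured 29.3, 28.1 and 23.2 CPM in control hearts and 13.1, 15.4 and 17.9 CPM in LIN9 KO hearts, against 19.2, 31.4 and 25.6 CPM in Sav1 KO hearts and 23.5, 26.1 and 18.5 CPM in hearts lacking both genes. LIN9 KO libraries were below all comparison libraries in the first experiment, by less than the rounding of the nearest values, and below all control libraries in the second, and the groups overlapped where Sav1 was deleted. The log2 fold change of Lin9 was -0.31 in the first experiment (edgeR quasi-likelihood test, Benjamini-Hochberg adjusted p = 0.13), -0.80 with intact Sav1 (edgeR, Benjamini-Hochberg adjusted p = 0.0027) and -0.16 with Sav1 deleted (edgeR, Benjamini-Hochberg adjusted p = 0.586). Sav1 measured 54.5, 56.2 and 61.9 CPM in control hearts and 43.1, 36.1 and 43.0 CPM in Sav1 KO hearts. With LIN9 deleted it measured 51.9, 49.9 and 47.3 CPM where Sav1 was intact and 44.0, 40.5 and 42.3 CPM where Sav1 was deleted. Every Sav1 KO library was below every Sav1 wild-type library of the same LIN9 genotype, with log2 fold changes of -0.50 (edgeR, Benjamini-Hochberg adjusted p = 0.318) and -0.23 (edgeR, Benjamini-Hochberg adjusted p = 0.464). In the first experiment Sav1 ranged from 51.5 to 55.3 CPM in comparison hearts and from 43.0 to 52.0 CPM in LIN9 KO hearts. Whole-gene counts therefore check the labels only in part.

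All 9 epicardial genes were detected in all 18 libraries, the lowest value being 10.1 CPM for Upk1b in Sav1 KO replicate 1. In bulk RNA the reads are not assigned to a cell layer. The lowest group mean in raw counts was 36.7, for Upk1b in Sav1 KO hearts. On GRCm38 the transcription factor genes were Wt1 (ENSMUSG00000016458, chr2:105126529-105173616, plus strand), Tbx18 (ENSMUSG00000032419, chr9:87702800-87731260, minus strand) and Tcf21 (ENSMUSG00000045680, chr10:22817281-22820174, minus strand). Aldh1a2 (ENSMUSG00000013584) lies at chr9:71215789-71296243 on the plus strand, Upk3b (ENSMUSG00000042985) at chr5:136038496-136046487 on the plus strand and Upk1b (ENSMUSG00000049436) at chr16:38773184-38800328 on the minus strand. Msln (ENSMUSG00000063011) lies at chr17:25748613-25754378, Krt19 (ENSMUSG00000020911) at chr11:100140810-100148665 and Lrrn4 (ENSMUSG00000043110) at chr2:132868305-132880891, all on the minus strand. The whole exonic length of Tcf21, 100%, lies under the span of the antisense gene Gm10824, and 20.6% of that of Tbx18 under D030062O11Rik, while the exons of the other 7 members lie under no other gene. How the counting treated reads from such overlaps is not stated, and it bears on the levels of Tcf21 and Tbx18. It bears on Sav1 too, with 28.1% of its exonic length under other genes, where Lin9 has 0%.

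The table of RefSeq promoters for GRCm38.p6 held 5 of the 9 members, Tbx18, Tcf21, Upk3b, Aldh1a2 and Lrrn4, and held no entry for Wt1, Upk1b, Msln and Krt19. The windows of 250 bases upstream of the start are shown for Upk3b and Aldh1a2, which rose on LIN9 loss and hold a searched motif, and for Tbx18, which had the smallest log2 fold changes of the 9. Lrrn4 also rose and holds a searched motif, given below, and its window is not shown. They are written 5′ to 3′ on the strand of the gene, with motif matches in capitals.
Upk3b, chr5:136038246-136038495, plus strand: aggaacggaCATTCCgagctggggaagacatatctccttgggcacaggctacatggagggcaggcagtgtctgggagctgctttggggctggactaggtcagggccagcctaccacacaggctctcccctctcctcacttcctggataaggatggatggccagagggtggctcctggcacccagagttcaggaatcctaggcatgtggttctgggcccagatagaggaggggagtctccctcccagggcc
Aldh1a2, chr9:71215539-71215788, plus strand: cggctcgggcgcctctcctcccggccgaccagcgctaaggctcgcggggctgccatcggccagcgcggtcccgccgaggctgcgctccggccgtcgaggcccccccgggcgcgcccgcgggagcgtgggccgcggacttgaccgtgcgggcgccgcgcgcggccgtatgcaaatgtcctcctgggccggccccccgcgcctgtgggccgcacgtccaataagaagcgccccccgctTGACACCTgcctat
Tbx18, chr9:87731261-87731510, minus strand: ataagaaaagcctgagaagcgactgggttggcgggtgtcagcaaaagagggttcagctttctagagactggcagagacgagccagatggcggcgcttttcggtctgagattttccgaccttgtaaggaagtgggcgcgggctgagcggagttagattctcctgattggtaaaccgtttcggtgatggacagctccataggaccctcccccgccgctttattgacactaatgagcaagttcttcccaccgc
Searched on both strands were TTTGAA (cell cycle genes homology region), GGAATG (bound by TEAD factors), GCGGGGGCG (Wt1 and Egr1) and AGGTGTNA (T-box factors), held by 16%, 12.6%, 2.57% and 2.68% of 32817 promoter windows of the same length. GGAATG was found in Upk3b on the minus strand, at bases 241 to 236 before the start, and in Lrrn4 on the plus strand, at bases 196 to 191. AGGTGTNA was found in Aldh1a2 on the minus strand, at bases 14 to 7 before the start. TTTGAA and GCGGGGGCG were in 0 of the 5 windows, and the windows of Tbx18 and Tcf21 held no searched motif. GC content was 60.8% in Upk3b, 77.6% in Aldh1a2, 54% in Tbx18, 52.4% in Tcf21 and 59.2% in Lrrn4, against a median of 52.4% over all windows. A match describes the letters of a window and is no evidence of binding.

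Loss of LIN9 was accompanied by higher RNA of nearly the whole set of epicardial genes. The summed level of the 9 genes was 386, 373 and 359 CPM in the comparison libraries of the first experiment and 712, 688 and 796 CPM in the LIN9 KO libraries, a ratio of 1.97. In the second experiment the sum was 344, 342 and 341 CPM in control hearts and 686, 650 and 722 CPM in LIN9 KO hearts. It was 293, 331 and 340 CPM in Sav1 KO hearts and 595, 627 and 619 CPM in hearts lacking both genes. Every LIN9-deleted library was above every library with wild-type LIN9 of its experiment. In bulk RNA, more cells of a type and more RNA per cell, or fewer cells of a type and less RNA per cell, cannot be told apart. CPM is a share of a library, so less RNA from other cells cannot be told apart from a rise either. On LIN9 loss the ventricular cardiomyocyte sum, described below, was 0.494, 0.503 and 0.494 times as high. These ratios are for the first experiment, intact Sav1 and Sav1 deleted, and their part in the epicardial values was not tested.

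In the first experiment 8 of the 9 members rose at an edgeR adjusted p under 0.05 and Tbx18 did not pass, where 11.1% of the 19752 tested genes rose and 9.78% fell. The LIN9 KO libraries were all above the comparison libraries for 9 of 9 members, as for 18.4% of all tested genes. With intact Sav1 in the second experiment 8 of 9 rose, again all but Tbx18, where 12.8% of 17675 tested genes rose and 10.5% fell. There 8 of 9 members had groups that did not overlap, as had 18.4% of all tested genes in that direction. With Sav1 deleted 8 of 9 rose on LIN9 loss, where 11.8% of tested genes rose and 11.6% fell. Groups that did not overlap, LIN9 KO higher, were found there for 8 of 9 members, the exception being Aldh1a2, and for 21.9% of tested genes. The median log2 fold change of the 9 members was 1.04, 1.14 and 1.09 in these 3 comparisons, and that of all tested genes was 0.02, 0.01 and 0.03. Of all tested genes 1932 fell in the first experiment, and 1249 without comparison replicate 3.

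**Figure D1:**
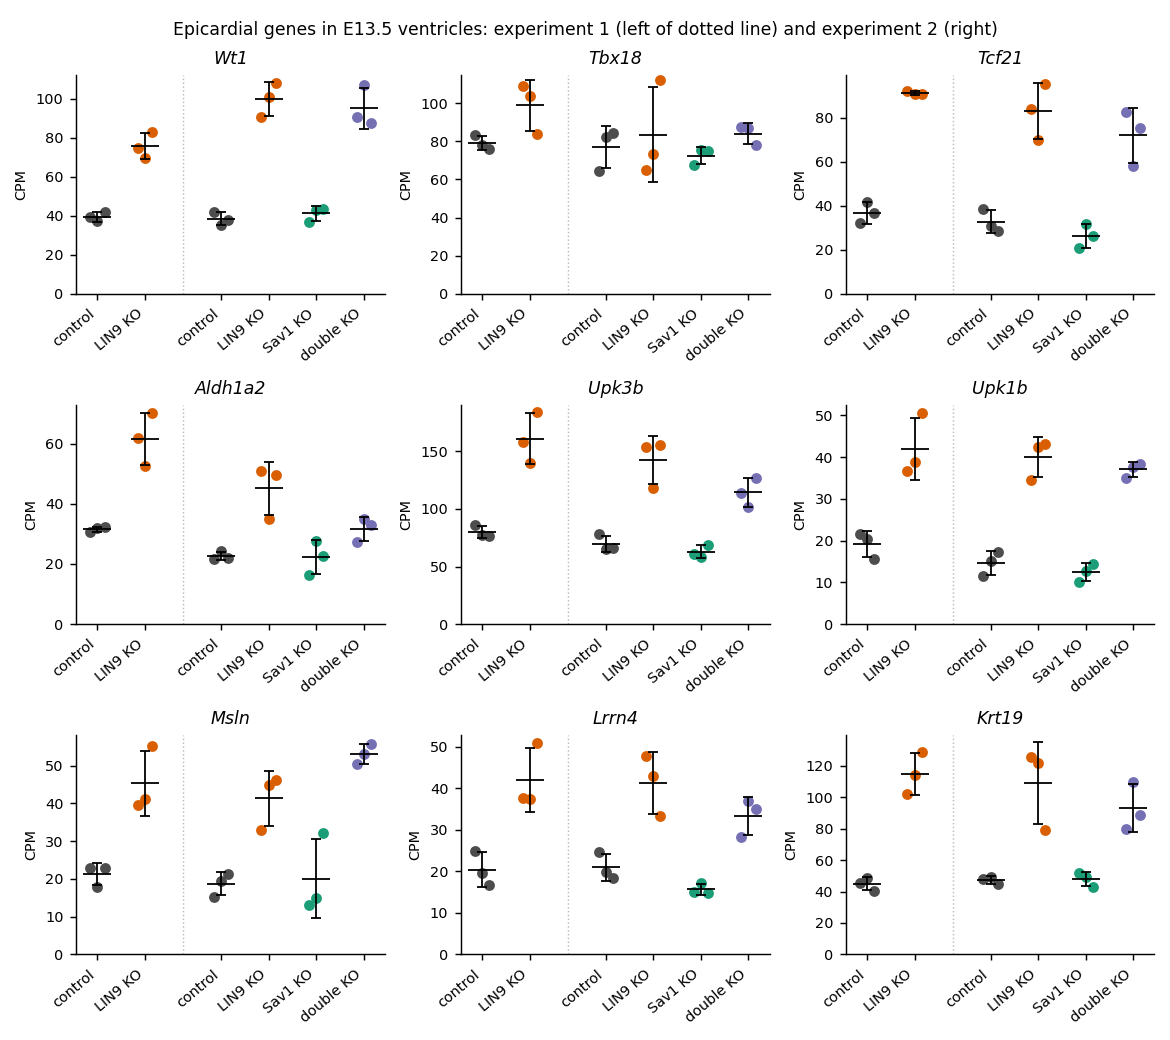
Level of each of the 9 epicardial genes in CPM by genotype group, with a panel per gene; points are libraries, bars are mean and SD of 3 libraries, the dotted line separates the experiments, and double KO marks hearts lacking both genes. LIN9-deleted libraries sit above the LIN9 wild-type libraries of the same experiment in every panel but those of Tbx18 and Aldh1a2, and the Tbx18 libraries of the second experiment span 64.5 to 112 CPM.

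Among the transcription factors, Wt1, a zinc finger protein required for epicardial development, measured 39.2, 37.1 and 42.2 CPM in comparison hearts of the first experiment and 74.7, 69.8 and 82.7 CPM in LIN9 KO hearts. In the second experiment it measured 41.9, 35.3 and 38.0 CPM in control hearts, 90.7, 101 and 108 CPM in LIN9 KO hearts, 36.7, 43.2 and 43.7 CPM in Sav1 KO hearts and 90.3, 107 and 87.5 CPM in hearts lacking both. No library with LIN9 deleted came down to any library with LIN9 wild-type, and the Sav1 genotypes overlapped within each LIN9 genotype. Wt1 rose on LIN9 loss by 0.94 ± 0.11 on the log2 scale in the first experiment, by 1.38 ± 0.12 with intact Sav1 and by 1.21 ± 0.12 with Sav1 deleted (± SE; edgeR, Benjamini-Hochberg adjusted p = 2.25e-05, 2.36e-09 and 2.10e-08).

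Tcf21, a basic helix-loop-helix factor that also marks precursors of cardiac fibroblasts in the epicardium, measured 32.0, 41.6 and 36.6 CPM in comparison hearts of the first experiment against 92.1, 90.8 and 90.7 CPM in LIN9 KO hearts. Its libraries of the second experiment stood at 38.6, 30.8 and 28.7 CPM in control hearts and 83.8, 69.9 and 95.4 CPM in LIN9 KO hearts, and at 20.9, 31.7 and 26.3 CPM in Sav1 KO hearts and 82.5, 58.1 and 75.1 CPM in hearts lacking both. High and low libraries again divided by LIN9 genotype without overlap. The rise was 1.31 ± 0.11 on the log2 scale in the first experiment, 1.34 ± 0.16 with intact Sav1 and 1.45 ± 0.17 with Sav1 deleted (± SE; edgeR, Benjamini-Hochberg adjusted p = 2.04e-06, 1.51e-06 and 8.63e-07).

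Tbx18, a T-box factor of the epicardium that has also been described in ventricular and septal myocardium, measured 83.1, 78.2 and 75.9 CPM in comparison hearts and 109, 104 and 83.7 CPM in LIN9 KO hearts of the first experiment. In the second it measured 64.5, 82.2 and 84.4 CPM in control hearts, 65.1, 73.5 and 112 CPM in LIN9 KO hearts, 67.6, 75.3 and 74.7 CPM in Sav1 KO hearts and 87.3, 87.0 and 77.9 CPM in hearts lacking both. LIN9 KO libraries were above all comparison libraries in the first experiment, the lowest by a narrow margin, while LIN9 KO and control libraries overlapped in the second, where LIN9 KO replicate 3 was the highest. The log2 fold change was 0.32 in the first experiment, with a 95% confidence interval from 0.08 to 0.56 (edgeR, Benjamini-Hochberg adjusted p = 0.0527). With intact Sav1 it was 0.11, with an interval from -0.22 to 0.44 (edgeR, Benjamini-Hochberg adjusted p = 0.685), and with Sav1 deleted 0.21, from -0.12 to 0.55 (edgeR, Benjamini-Hochberg adjusted p = 0.376). The upper bounds of 0.56 and 0.44 are below the lowest lower bound among the other 8 members in the same comparison, 0.69 for Lrrn4 and 0.55 for Msln, and with Sav1 deleted the interval overlaps that of Aldh1a2. Without LIN9 KO replicate 3 of the first experiment Tbx18 passed, at 0.43 (edgeR, Benjamini-Hochberg adjusted p = 0.00297, where the alternatives ranged from 0.00297 to 0.205). It passed in 5 of the 12 alternatives, the others being upper-quartile normalization, no filter, mean count above 10 and a replicate block. With intact Sav1 the sign turned without LIN9 KO replicate 3, to -0.18, and without control replicate 1, to -0.02. D030062O11Rik, which overlaps it, had between 0 and 8 counts per library.

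Aldh1a2 encodes the enzyme that makes most of the retinoic acid in the embryonic epicardium. It measured 30.6, 31.8 and 32.3 CPM in comparison hearts of the first experiment and 61.9, 52.6 and 70.0 CPM in LIN9 KO hearts. The second experiment gave 21.6, 24.3 and 22.1 CPM in control hearts, 50.9, 35.1 and 49.6 CPM in LIN9 KO hearts, 27.7 and 22.5 CPM in Sav1 KO replicates 2 and 3, with replicate 1 below every control library and 27.3, 34.9 and 33.1 CPM in hearts lacking both genes. LIN9 KO hearts with intact Sav1 were the highest of the 4 groups without overlap, hearts lacking both came next and overlapped Sav1 KO hearts through its replicate 2, and control and Sav1 KO hearts overlapped. The rise on LIN9 loss was 0.96 ± 0.12 on the log2 scale in the first experiment, 0.99 ± 0.17 with intact Sav1 and 0.51 ± 0.18 with Sav1 deleted (± SE; edgeR, Benjamini-Hochberg adjusted p = 4.23e-05, 7.52e-05 and 0.0372). With Sav1 deleted the call was lost without Sav1 KO replicate 1, at 0.34 (edgeR, Benjamini-Hochberg adjusted p = 0.234), and without Sav1 KO replicate 3, at 0.52 (edgeR, Benjamini-Hochberg adjusted p = 0.0876). It was lost too without replicate 2 of the hearts lacking both, at 0.42 (edgeR, Benjamini-Hochberg adjusted p = 0.179), and without their replicate 3, at 0.46 (edgeR, Benjamini-Hochberg adjusted p = 0.116), and by DESeq2, at 0.51 (Benjamini-Hochberg adjusted p = 0.0858). Over all alternatives the adjusted p ranged from 0.0134 to 0.234.

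Upk3b and Upk1b encode uroplakins, membrane proteins best known from the urothelium that are also made by mesothelial cells. Upk3b measured 86.4, 77.2 and 76.4 CPM in comparison hearts of the first experiment and 158, 140 and 184 CPM in LIN9 KO hearts. In the second experiment it stood at 77.8, 65.4 and 66.4 CPM in control hearts, 154, 118 and 155 CPM in LIN9 KO hearts, 61.2, 58.1 and 68.9 CPM in Sav1 KO hearts and 114, 102 and 127 CPM in hearts lacking both. Its LIN9-deleted libraries were all above those with wild-type LIN9, and LIN9 KO hearts overlapped hearts lacking both at their lower end. Upk3b rose by 1.00 ± 0.12 on the log2 scale in the first experiment, by 1.03 ± 0.12 with intact Sav1 and by 0.86 ± 0.12 with Sav1 deleted (± SE; edgeR, Benjamini-Hochberg adjusted p = 2.65e-05, 2.88e-07 and 5.42e-06). Upk1b ranged from 15.6 to 21.7 CPM in comparison hearts and from 36.6 to 50.5 CPM in LIN9 KO hearts of the first experiment. In the second it ranged from 10.1 to 17.3 CPM over the 6 libraries with wild-type LIN9 and from 34.5 to 43.2 CPM over the 6 with LIN9 deleted, a gap that no library filled. Its rise was 1.13 ± 0.15, 1.45 ± 0.17 and 1.57 ± 0.17 in the same order (± SE; edgeR, Benjamini-Hochberg adjusted p = 0.000124, 2.25e-07 and 1.04e-07).

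Msln encodes mesothelin, a protein anchored at the surface of mesothelial cells. It measured 22.9, 17.8 and 22.9 CPM in comparison hearts of the first experiment and 39.7, 41.1 and 55.2 CPM in LIN9 KO hearts. The second experiment gave 15.3, 19.5 and 21.4 CPM in control hearts, 32.9, 44.9 and 46.2 CPM in LIN9 KO hearts, 13.1, 14.9 and 32.1 CPM in Sav1 KO hearts and 50.4, 53.2 and 55.8 CPM in hearts lacking both. Sav1 KO replicate 3 was high within its group and came close to the lowest LIN9 KO library, and hearts lacking both were above all other groups. Msln rose by 1.10 ± 0.15 on the log2 scale in the first experiment, by 1.14 ± 0.27 with intact Sav1 and by 1.41 ± 0.26 with Sav1 deleted (± SE; edgeR, Benjamini-Hochberg adjusted p = 0.000112, 0.00848 and 0.00174). Lrrn4, which encodes a leucine-rich repeat membrane protein known from mesothelium, ranged from 16.6 to 25.0 CPM in comparison hearts and from 37.4 to 51.0 CPM in LIN9 KO hearts. Over the second experiment it ranged from 14.7 to 24.6 CPM with wild-type LIN9 and from 28.3 to 47.7 CPM with LIN9 deleted. These groups did not overlap, and the rise was 1.04 ± 0.16, 0.98 ± 0.16 and 1.09 ± 0.17 on the log2 scale in the same order of comparisons (± SE; edgeR, Benjamini-Hochberg adjusted p = 0.0005, 4.58e-05 and 3.12e-05).

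Krt19, a keratin of simple epithelia, measured 45.3, 48.8 and 40.6 CPM in comparison hearts of the first experiment and 102, 114 and 129 CPM in LIN9 KO hearts. It stood at 48.2, 49.3 and 44.6 CPM in control hearts of the second experiment, 126, 122 and 79.0 CPM in LIN9 KO hearts, 51.8, 49.6 and 43.0 CPM in Sav1 KO hearts and 80.1, 110 and 88.9 CPM in hearts lacking both. LIN9-deleted and LIN9 wild-type libraries did not overlap, and the lowest LIN9-deleted value was that of LIN9 KO replicate 3, the library in which Tbx18 was highest. Krt19 rose by 1.36 ± 0.11 on the log2 scale in the first experiment, by 1.20 ± 0.155 with intact Sav1 and by 0.95 ± 0.16 with Sav1 deleted (± SE; edgeR, Benjamini-Hochberg adjusted p = 2.07e-06, 7.88e-06 and 0.000137). Grouping the second experiment by LIN9 alone, a comparison chosen after seeing the data, the 6 libraries with LIN9 deleted were all above the 6 with LIN9 wild-type for 7 of the 9 members and for 9.16% of all tested genes. The exceptions were Tbx18, at 65.1 to 112 CPM against 64.5 to 84.4 CPM, and Aldh1a2, at 27.3 to 50.9 CPM against at most 27.7 CPM.

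**Figure D2:**
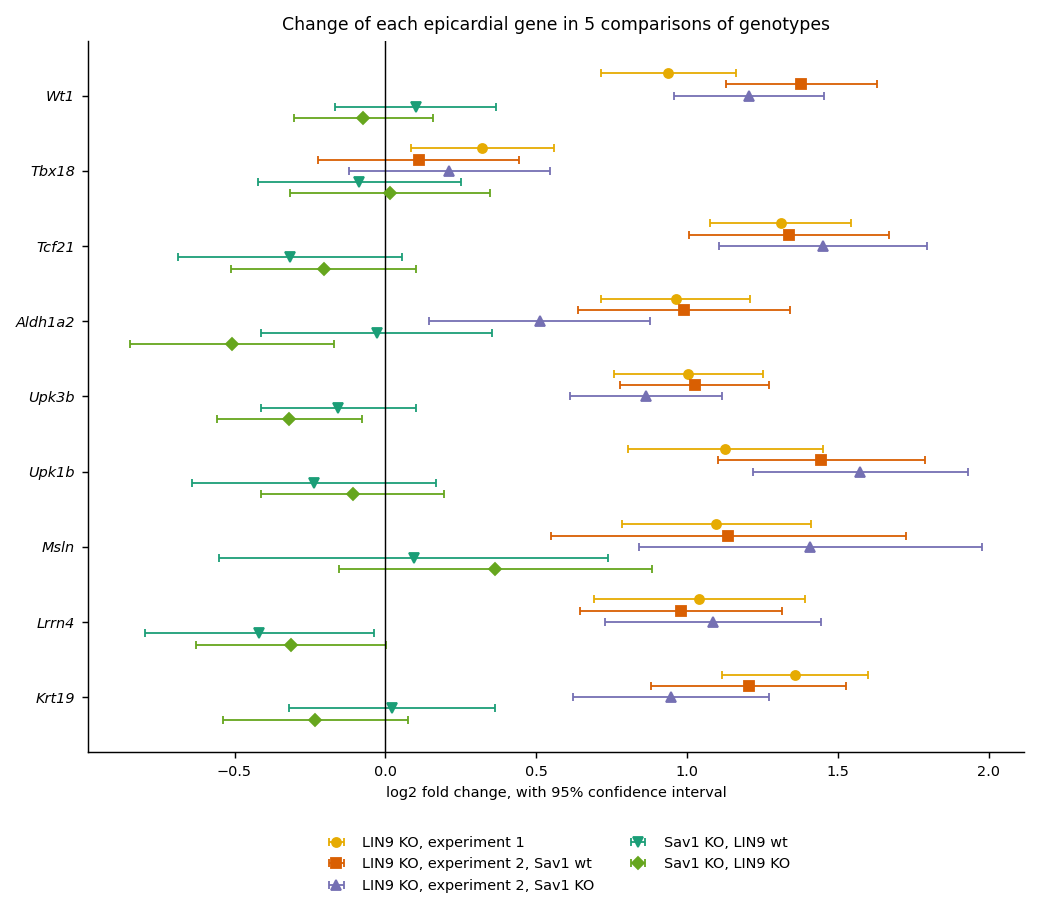
Log2 fold change of the 9 epicardial genes with 95% confidence intervals in 5 comparisons, for LIN9 loss in the first experiment and with Sav1 intact or deleted in the second, and for Sav1 loss with LIN9 wild-type or deleted. On LIN9 loss 8 members lie between 0.51 and 1.57 and Tbx18 between 0.11 and 0.32, and on Sav1 loss the members lie between -0.51 and 0.36.

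Set against exonic length, as CPM divided by the kilobases of merged exons (RPKM), Krt19 had the highest level of the 9 and Upk3b the next in every group. Krt19 and Upk3b stood at 24.2 ± 2.21 and 22.7 ± 1.58 RPKM in comparison hearts of the first experiment (mean ± SD, 3 libraries), where their libraries overlapped, and at 62.1 ± 7.1 and 45.5 ± 6.23 RPKM in LIN9 KO hearts, where they did not. In the second experiment Krt19 stood at 25.5 and Upk3b at 19.8 RPKM in control hearts, 58.7 and 40.4 RPKM in LIN9 KO hearts, 26.0 and 17.8 RPKM in Sav1 KO hearts and 50.1 and 32.4 RPKM in hearts lacking both, with overlap in LIN9 KO hearts among these 4 groups. Tbx18 held the third place in the groups with wild-type LIN9, at 16.8, 16.3 and 15.4 RPKM in comparison, control and Sav1 KO hearts. In hearts with LIN9 deleted Tcf21 held the third place, at 38.8 RPKM in the first experiment and 35.4 and 30.6 RPKM in the second with Sav1 intact and deleted. Tbx18 then stood at 21, 17.7 and 17.8 RPKM in the same groups. The libraries of Tbx18 and Tcf21 overlapped in comparison and control hearts and did not in the other 4 groups. Lrrn4 was the lowest in every group, from 4.22 ± 0.365 RPKM in Sav1 KO hearts to 11.3 ± 2.09 RPKM in LIN9 KO hearts of the first experiment, and in comparison, control and both groups of LIN9 KO hearts Wt1 and Msln came next above it, with libraries that overlapped. The remaining genes, Aldh1a2 and Upk1b, were in between, at 13.9 and 9.20 RPKM in comparison hearts of the first experiment.

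**Figure D3:**
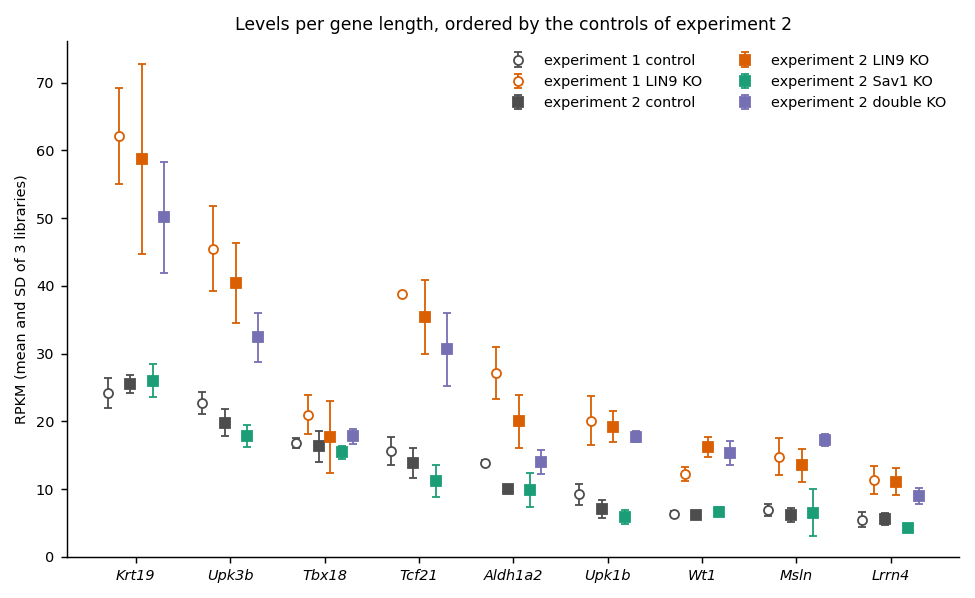
Level per exonic length of the 9 epicardial genes in RPKM in the 6 groups, as mean and SD of 3 libraries. Krt19 is the highest and Lrrn4 the lowest in each group, at 24.2 and 5.50 RPKM in the comparison hearts of the first experiment.

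Deletion of Sav1 asks whether loss of a Hippo pathway scaffold moves the same genes, with and without LIN9. These comparisons share their libraries with the ones above, and their values are set side by side. With wild-type LIN9 0 of the 9 members passed the test by edgeR, 1 had an unadjusted p under 0.05 and DESeq2 called 0, where edgeR called 0.017% of all tested genes, or 3 of 17675, with 693 at an unadjusted p under 0.05 and 2 by DESeq2. The edgeR count of 3 fell to 2 without control replicate 1 and to 0 without any other of the 6 libraries, with 548 to 658 genes at an unadjusted p under 0.05 in those fits. Lrrn4 was the member under 0.05 unadjusted, at -0.42 ± 0.19 on the log2 scale (± SE; edgeR, Benjamini-Hochberg adjusted p = 0.999). It measured 24.6, 19.9 and 18.3 CPM in control hearts and 15.1, 17.2 and 14.7 CPM in Sav1 KO hearts, and was the 1 of 9 members whose groups did not overlap, against 12.1% of all tested genes in either direction. The log2 fold changes of the other members ran from -0.32 for Tcf21 to 0.10 for Wt1, 6 of all 9 were negative and 3 positive, and the median was -0.09 beside 0.00 for all tested genes. That median was -0.23 without Sav1 KO replicate 3, and between -0.07 and -0.05 without control replicate 1, 2 or 3 or Sav1 KO replicate 1. Among these small values the sign turned without a library for 3 members. Aldh1a2, at -0.03, became 0.14 without Sav1 KO replicate 1 and 0.01 without control replicate 2. Krt19, at 0.02, became -0.04 without Sav1 KO replicate 1, -0.01 without its replicate 2 and -0.02 without control replicate 3. Msln, at 0.09, became -0.42 without Sav1 KO replicate 3 and -0.03 without control replicate 1.

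Where LIN9 was deleted too, Sav1 loss gave 0 of 9 members past the test by edgeR, and 2 at an unadjusted p under 0.05. DESeq2, by its own filter, gave an adjusted p to 869 of 17675 genes here and to 0 of the 9 members. Without that filter, an alternative chosen after seeing the data, DESeq2 called 0 members. Of all tested genes edgeR called 0.0113%, or 2, with 2093 at an unadjusted p under 0.05, and 84 with a replicate block. DESeq2 called 11 genes without its filter, and 77 of the 869 with it. Leaving out LIN9 KO replicate 1, 2 or 3, edgeR called 4, 0 and 378 genes, and leaving out replicate 1, 2 or 3 of the hearts lacking both it called 1, 15 and 0, with 1814 and 1898 at an unadjusted p under 0.05 where it called 0. Aldh1a2 had a log2 fold change of -0.51 ± 0.16 (± SE; edgeR, Benjamini-Hochberg adjusted p = 0.201) and Upk3b of -0.32 ± 0.12 (± SE; edgeR, Benjamini-Hochberg adjusted p = 0.257). The libraries of Aldh1a2 did not overlap, all 3 lacking both genes being lower, and those of Msln did not overlap in the other direction, with a log2 fold change of 0.36 ± 0.24 (± SE; edgeR, Benjamini-Hochberg adjusted p = 0.589). These 2 of 9 members stand beside 15.1% of all tested genes whose groups did not overlap in either direction. Of the 9 log2 fold changes 7 were negative, the median was -0.20 beside 0.00 for all tested genes, and without LIN9 KO replicate 3 it was -0.10. Tbx18, at 0.02, became -0.13 without LIN9 KO replicate 1, -0.06 without LIN9 KO replicate 2, 0.28 without LIN9 KO replicate 3, and -0.02 and -0.01 without replicates 1 and 2 of the hearts lacking both. The summed level of the 9 genes was 0.938 times that of control hearts in Sav1 KO hearts, and 0.895 times that of LIN9 KO hearts where both genes were lacking, with all 3 Sav1-deleted libraries lower each time.

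The interaction of the 2 genotypes, the effect of Sav1 loss with LIN9 deleted minus that with LIN9 wild-type, was called for 0 members by edgeR, with 0 at an unadjusted p under 0.05 and 0 by DESeq2. Of all tested genes 0% passed by edgeR, with 1156 at an unadjusted p under 0.05 and 0 by DESeq2, and without LIN9 KO replicate 3 edgeR called 64 and without control replicate 1 it called 2. Aldh1a2 had the largest difference in size among the members, -0.48 ± 0.25 on the log2 scale (± SE; edgeR, Benjamini-Hochberg adjusted p = 0.764). Its lower rise on LIN9 loss with Sav1 deleted is therefore not shown to differ from that with Sav1 intact. The other 8 ran from -0.26 for Krt19 to 0.27 for Msln, and the median over the 9 was 0.10 beside 0.00 for all tested genes. That median fell to -0.04 without LIN9 KO replicate 1, -0.02 without LIN9 KO replicate 3, and -0.01 without control replicate 1 or 3. Single members turned in sign as well, Tbx18 from 0.10 to -0.04 without LIN9 KO replicate 1, and Lrrn4 from 0.11 to -0.02 without LIN9 KO replicate 3. Lrrn4 and Tcf21, the latter from 0.11, both became -0.01 without control replicate 1, and Upk1b turned from 0.13 to -0.01 without control replicate 3.

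Hearts lacking both genes were also compared directly with control hearts. There 7 of 9 members rose, where 10.7% of tested genes rose and 9.96% fell, and the groups did not overlap, with the knockout higher, for 8 of 9 members and for 19.8% of all tested genes. The count of 1887 risen genes was 1148 without replicate 2 of the hearts lacking both. The median log2 fold change of the 9 was 0.97 beside 0.03 for all tested genes. Msln had the largest of the 9, at 1.50 ± 0.26 (± SE; edgeR, Benjamini-Hochberg adjusted p = 0.00141), followed by Upk1b at 1.34 ± 0.17 (± SE; edgeR, Benjamini-Hochberg adjusted p = 1.27e-06) and Wt1 at 1.31 ± 0.12 (± SE; edgeR, Benjamini-Hochberg adjusted p = 9.61e-09). Tcf21 rose by 1.13, Krt19 by 0.97, Upk3b by 0.71 and Lrrn4 by 0.67 on the log2 scale, the highest adjusted p among them being that of Lrrn4 (edgeR, Benjamini-Hochberg adjusted p = 0.00451). Aldh1a2, at 0.48 ± 0.18 (± SE; edgeR, Benjamini-Hochberg adjusted p = 0.0539), and Tbx18, at 0.13 ± 0.16 (± SE; edgeR, Benjamini-Hochberg adjusted p = 0.633), did not pass. Over 13 alternatives Tbx18 ranged from 0.01 to 0.20 and passed in 0, and Aldh1a2 ranged from 0.38 to 0.54 and passed in 3.

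To describe how the members varied together, Pearson's r was computed over the 18 libraries on log2 CPM centred within each experiment, for all 36 pairs. The libraries fall into LIN9 genotypes whose difference enters every one of these r, so they are given as a description with no p. The 28 pairs without Tbx18 had a median r of 0.89, from 0.74 for Aldh1a2 and Msln to 0.95 for Wt1 and Upk1b. The 8 pairs with Tbx18 had a median of 0.46, from 0.28 to 0.52. With each library centred on its own group, a step added after seeing the data, the median over the 36 pairs was 0.14, from -0.70 to 0.72, and 23 of 36 were positive.

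**Figure D4:**
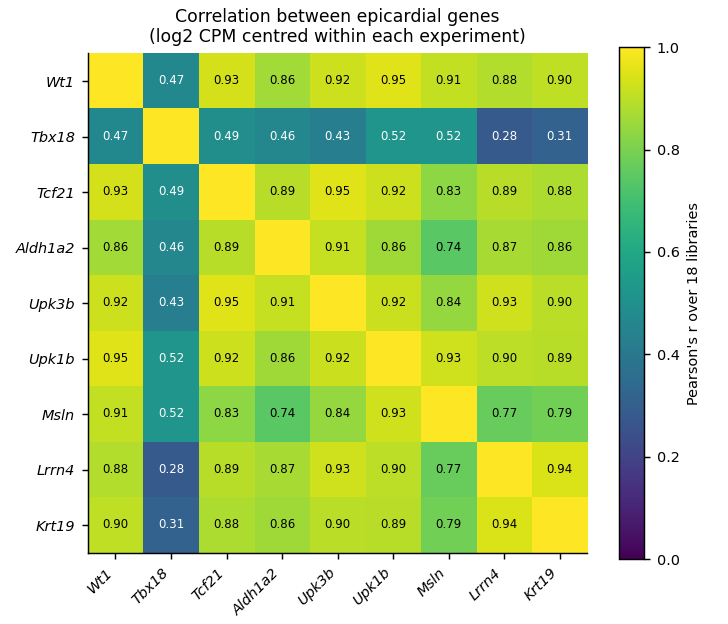
Pearson's r between each pair of the 9 epicardial genes over 18 libraries, on log2 CPM centred within each experiment, as a heat map. Pairs with Tbx18 lie between 0.28 and 0.52 and the others between 0.74 and 0.95, with the LIN9 genotypes contributing to each.

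By the same measure, 12109 genes were compared with the mean of the 9 members, and 557 of them had an r above 0.9 over the 18 libraries. The 4 most alike were Spon2, a secreted matrix protein (r = 0.987), Ptgis, prostacyclin synthase (r = 0.986), Col8a2, a collagen chain (r = 0.986), and Lsp1, an actin-binding protein (r = 0.983). Spon2 had r of 0.986 within the first and 0.988 within the second experiment. It stood at 62.6 ± 12 CPM in comparison hearts and 212 ± 28.3 CPM in LIN9 KO hearts of the first experiment (mean ± SD, 3 libraries), and at 61.2, 216, 49.5 and 198 CPM on average in control, LIN9 KO, Sav1 KO hearts and hearts lacking both. On LIN9 loss its log2 fold change was 1.76 in the first experiment and 1.82 with intact Sav1, against 1.61 and 1.40 for Ptgis, 1.50 and 1.79 for Col8a2 and 1.12 and 0.99 for Lsp1. These genes were picked for a profile that holds the LIN9 difference, so their fold changes are a description with no test.

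Beside the 9, a list of 18 other epicardial and mesothelial genes was measured, of which 16 were tested in the first experiment and 15 in the second. On LIN9 loss 11 rose and 1 fell in the first experiment, and 10 rose and 2 fell with intact Sav1, with Sav1 deleted, and in hearts lacking both against control. In the same order 11.1%, 12.8%, 11.8% and 10.7% of all tested genes rose and 9.78%, 10.5%, 11.6% and 9.96% fell. The median log2 fold change was 0.96 in the first experiment and 1.13 with intact Sav1. The summed level was 296, 300 and 280 CPM in comparison hearts and 498, 501 and 530 CPM in LIN9 KO hearts of the first experiment. In the second it was 289, 326 and 288 CPM in control hearts, 486, 535 and 546 CPM in LIN9 KO hearts, 294, 316 and 308 CPM in Sav1 KO hearts and 472, 524 and 517 CPM in hearts lacking both. Krt8, another keratin of simple epithelia, went from 6.39 to 25.4 CPM on average in the first experiment and from 5.55 to 24.0 CPM with intact Sav1, a rise of 1.99 ± 0.20 and 2.11 ± 0.23 on the log2 scale (± SE; edgeR, Benjamini-Hochberg adjusted p = 1.19e-05 and 7.87e-08). C3, complement component 3, rose by 2.67 and 3.42 from levels under 1 CPM. Krt14 rose by 0.98 from 1.46 CPM and by 2.74 ± 0.74 (± SE) from 0.339 CPM, a level near the floor. With Sav1 deleted the log2 fold change of Krt14 was 0.61 (edgeR, Benjamini-Hochberg adjusted p = 0.577). Sfrp5, a secreted antagonist of Wnt ligands, fell by 2.06 on the log2 scale in the first experiment, from 3.85 to 0.912 CPM, and was at 3.97 and 0.686 CPM in control and LIN9 KO hearts of the second (edgeR, Benjamini-Hochberg adjusted p = 0.000281 and 0.000787). Podxl, the most abundant gene of the list except in hearts lacking both, where it was Sema3d, had a log2 fold change of 0.36 (edgeR, Benjamini-Hochberg adjusted p = 0.0284) and 0.15 (edgeR, Benjamini-Hochberg adjusted p = 0.435). On Sav1 loss 0 of the 15 passed by edgeR with LIN9 wild-type, 1 being under 0.05 unadjusted, and 0 with LIN9 deleted, 4 being under 0.05 unadjusted. DESeq2 called 0 of them with LIN9 wild-type and, without its filter, 0 with LIN9 deleted. Anxa8 and Scx had 0 counts in all libraries, and the whole exonic length of each, 100%, lies under the span of another gene.

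Of the 4 other uroplakin genes 1 was tested, Upk1a, at 1.32 and 1.06 CPM in comparison and LIN9 KO hearts of the first experiment, with a log2 fold change of -0.32 (edgeR, Benjamini-Hochberg adjusted p = 0.626) and, with intact Sav1, of -0.95 (edgeR, Benjamini-Hochberg adjusted p = 0.436). Upk2 had 0 counts in all libraries, and the 4 genes together did not exceed 2.42 CPM in any library. The retinoic acid pathway, in which Aldh1a2 acts, was followed by 18 genes, of which 18 and 17 were tested. On LIN9 loss 8 rose and 1 fell in the first experiment, 7 rose with intact Sav1, and 8 rose and 1 fell with Sav1 deleted. Of all tested genes 11.1%, 12.8% and 11.8% rose and 9.78%, 10.5% and 11.6% fell in these comparisons. Rbp4, a retinol carrier, rose by 3.89 ± 0.42 from 0.559 to 8.39 CPM and by 5.77 ± 0.67 from 0.111 to 8.40 CPM (log2 ± SE; edgeR, Benjamini-Hochberg adjusted p = 4.93e-05 and 2.21e-07). Aldh1a1, a related enzyme, rose by 2.14 and 1.64, and Cyp26b1, which breaks retinoic acid down, by 1.60 and 2.04 on the log2 scale.

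Signals exchanged between epicardium and myocardium were followed by 18 genes, of which 17 were tested. In the first experiment 3 rose and 2 fell, with intact Sav1 4 rose and 2 fell, and with Sav1 deleted 3 rose and 2 fell, where 11.1%, 12.8% and 11.8% of all tested genes rose and 9.78%, 10.5% and 11.6% fell. With 17 genes tested, the counts that fell were near those shares. The summed level of the list overlapped between LIN9 genotypes in the first experiment and with Sav1 deleted, at ratios of 1.11 and 0.977. With intact Sav1 it was 1.21 times as high, without overlap. Epor, the erythropoietin receptor, rose by 1.68 and 1.54 on the log2 scale and the receptor Fgfr1 by 0.59 and 0.75. In the same comparisons the summed level of the erythroid markers described below was 7.01 and 7.31 times as high. Whether erythroid RNA had a part in the Epor values was not tested. Tgfbr3, a co-receptor for TGF-beta, fell by 1.06 and by 0.73, and Pdgfa, a growth factor, fell by 0.52 and by 0.45. Igf2, the most abundant of the list, averaged 5117 and 5582 CPM in comparison and LIN9 KO hearts of the first experiment, with a log2 fold change of 0.13 (edgeR, Benjamini-Hochberg adjusted p = 0.634), rose by 0.33 with intact Sav1 (edgeR, Benjamini-Hochberg adjusted p = 0.0219) and had a log2 fold change of -0.26 with Sav1 deleted (edgeR, Benjamini-Hochberg adjusted p = 0.0815). Of 10 genes of epithelial to mesenchymal transition, with 10 tested in the first and 9 in the second experiment, 5 rose and 1 fell in the first experiment and with intact Sav1, and 4 rose and 2 fell with Sav1 deleted. The same shares of all tested genes, 11.1%, 12.8% and 11.8% risen and 9.78%, 10.5% and 11.6% fallen, stand beside these counts. The sum of the list was 1.24, 1.2 and 1.01 times as high, with overlap where Sav1 was deleted. The largest changes are named, and the genes that fell are not among them. The transcription factor Snai1 rose by 1.32 and 1.40, Twist1 by 1.16 and 0.82, Snai2 by 0.83 and 0.77 and Prrx1 by 0.70 and 0.42. With Sav1 deleted Snai1, Twist1, Snai2 and Prrx1 rose by 1.21, 0.72, 0.69 and 0.41. Vim, the most abundant of these, rose by 0.50 (edgeR, Benjamini-Hochberg adjusted p = 0.0138) and 0.51 (edgeR, Benjamini-Hochberg adjusted p = 0.000201), and had a log2 fold change of 0.17 with Sav1 deleted (edgeR, Benjamini-Hochberg adjusted p = 0.207).

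Markers of several other cell types moved with LIN9 genotype as well, and their part in the result for the epicardial genes was not tested. Beside the counts that follow, 11.1%, 12.8% and 11.8% of all tested genes rose, in the first experiment, with intact Sav1 and with Sav1 deleted. In the same order 9.78%, 10.5% and 11.6% fell. Ventricular cardiomyocytes were followed by 8 markers, of which 7 were tested and 7 fell on LIN9 loss in each of the 3 comparisons. Their summed level was 18573, 18765 and 19207 CPM in comparison hearts and 9118, 10263 and 8541 CPM in LIN9 KO hearts of the first experiment. In the second it was 19937, 19254 and 19384 CPM in control hearts, 11381, 9870 and 8206 CPM in LIN9 KO hearts, 21208, 19838 and 20713 CPM in Sav1 KO hearts and 9721, 10300 and 10458 CPM in hearts lacking both. Myl2 fell by 1.48 and by 1.65 on the log2 scale and Irx4, a ventricular transcription factor, fell by 1.53 and by 1.52. Myh7 was the most abundant marker except in LIN9 KO hearts of the first experiment, where it was Tnnt2. Actc1 had 0 counts in all libraries, with 100% of its exonic length under another gene's span. Among 7 atrial markers, all tested, 1 rose in the first experiment, 2 with intact Sav1 and 2 with Sav1 deleted, including Nppa by 1.59, 1.76 and 2.04. The tissue was ventricle, and bulk reads of these genes are not assigned to atrial cells. The count of the first experiment was near the 11.1% of all tested genes that rose there, and 0 of the 7 fell in any of the 3 comparisons. The atrial sum ranged from 4633 to 6494 CPM in comparison hearts and from 5017 to 8026 CPM in LIN9 KO hearts of the first experiment, and from 5557 to 5937, 5561 to 6497, 5521 to 6167 and 4683 to 6860 CPM in control, LIN9 KO, Sav1 KO hearts and hearts lacking both, so that groups overlapped. Myl4 was the most abundant atrial marker over the first experiment and Myh6 over the second.

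Fibroblasts and cushion mesenchyme were followed by 8 markers, of which 7 rose in the first experiment, 7 with intact Sav1 and 8 with Sav1 deleted. Their summed level was 2616, 2371 and 2288 CPM in comparison hearts and 4714, 5109 and 5028 CPM in LIN9 KO hearts of the first experiment. It was 3087, 3223 and 2997 CPM in control hearts of the second, 6646, 6725 and 5319 CPM in LIN9 KO hearts, 3127, 3499 and 2943 CPM in Sav1 KO hearts and 5353, 6007 and 6872 CPM in hearts lacking both. Col3a1 was the most abundant, at 770 and 1677 CPM in comparison and LIN9 KO hearts of the first experiment. Pdgfra rose by 1.34 and 1.09, and no marker of the list was at 0. Of 8 mural markers 3 rose and 2 fell in each of the 3 comparisons, with Tagln up by 1.39 and 1.07 and Kcnj8 at -1.45 and -1.04 in the first experiment and with intact Sav1. Acta2, the most abundant mural marker, had log2 fold changes of 0.06 (edgeR, Benjamini-Hochberg adjusted p = 0.8) and -0.32 (edgeR, Benjamini-Hochberg adjusted p = 0.0229). Of 8 endothelial and endocardial markers 3 rose in the first experiment, 3 rose and 1 fell with intact Sav1, and 5 rose and 1 fell with Sav1 deleted, Emcn rising by 0.75, 0.72 and 0.98. Kdr, a receptor for VEGF, went the other way, with log2 fold changes of -0.72 (edgeR, Benjamini-Hochberg adjusted p = 0.134), -0.83 (edgeR, Benjamini-Hochberg adjusted p = 1.45e-05) and -0.67 (edgeR, Benjamini-Hochberg adjusted p = 0.000204). The mural sum ranged from 1357 to 1553 CPM in comparison hearts and from 1925 to 2133 CPM in LIN9 KO hearts of the first experiment, and from 1344 to 1412, 1397 to 1780, 1623 to 1680 and 1549 to 1758 CPM in control, LIN9 KO, Sav1 KO hearts and hearts lacking both. The endothelial sum ranged from 1030 to 1317 CPM in comparison hearts and from 1223 to 1594 CPM in LIN9 KO hearts, and from 1140 to 1185, 1250 to 1381, 996 to 1078 and 1140 to 1341 CPM in the 4 groups of the second experiment in the same order. Averaged over all libraries of an experiment, Pecam1 was the most abundant endothelial marker in the first and Npr3 in the second.

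Of 8 macrophage markers 7 rose in the first experiment, 5 with intact Sav1 and 7 with Sav1 deleted, with sums of 89.8, 95.2 and 92.8 CPM in comparison hearts and 160, 192 and 157 CPM in LIN9 KO hearts of the first experiment. The macrophage sum in the second was 107, 108 and 110 CPM in control hearts, 208, 175 and 179 CPM in LIN9 KO hearts, 87.8, 91.2 and 107 CPM in Sav1 KO hearts and 184, 224 and 235 CPM in hearts lacking both. Csf1r was the most abundant, and no marker was at 0. Of 8 erythroid markers 7 were tested and 7 rose in each of the 3 comparisons. Their sum was 7334, 5388 and 5610 CPM in comparison hearts and 67388, 35150 and 26050 CPM in LIN9 KO hearts of the first experiment. In control hearts of the second it was 3488, 2758 and 2886 CPM, in LIN9 KO hearts 15526, 22386 and 28854 CPM, in Sav1 KO hearts 2263, 2079 and 2762 CPM and in hearts lacking both 22343, 13964 and 7623 CPM. Hbb-y, an embryonic globin, was the most abundant except in Sav1 KO hearts, where it was Hba-a1. Alas2 had 0 counts in all libraries, with 100% of its exonic length under other genes' spans. Among the LIN9 KO libraries of the first experiment the erythroid sum ranged from 26050 to 67388 CPM and the sum of the 9 epicardial genes from 688 to 796 CPM.

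Tissues outside the heart that could be carried along with it, and dividing cells, were followed too. Of 8 liver markers 7 were tested in the first experiment, where 2 rose and 1 fell, and 2 in the second, where 1 rose with intact Sav1 and 1 with Sav1 deleted. Their sum was 2.27, 3.37 and 4.68 CPM in comparison hearts and 4.12, 9.23 and 17.7 CPM in LIN9 KO hearts of the first experiment. The liver sum in the second was 2.66, 2.06 and 2.08 CPM in control hearts, 5.92, 10.5 and 8.57 CPM in LIN9 KO hearts, 3.37, 1.69 and 1.71 CPM in Sav1 KO hearts and 6.82, 11.3 and 6.40 CPM in hearts lacking both. Ahsg, rising by 2.04 and 2.32, was its most abundant gene except in Sav1 KO hearts, where it was Ttr. Fgb had 0 counts in all libraries. The 6 markers of lung and other epithelia summed to at most 1.64 CPM in any library, with Nkx2-1 and Sox2 at 0 counts throughout, where 21.1% and 100% of the exonic length lies under another gene's span. In the second experiment their sum was 0.332, 0 and 0 CPM in control hearts and 1.64, 0.656 and 1.12 CPM in LIN9 KO hearts, without overlap. Hearts lacking both genes, at 0.682, 0.352 and 0.356 CPM, were also above control hearts. The LIN9 genotypes overlapped in the first experiment and where Sav1 was deleted, and 0 of the 6 were tested in the second experiment. Epcam was at 0.345 and 0.424 CPM in comparison and LIN9 KO hearts of the first experiment, with a log2 fold change of 0.27 (edgeR, Benjamini-Hochberg adjusted p = 0.83). Of 8 markers of cycling cells 4 fell in the first experiment, 3 with intact Sav1 and 5 with Sav1 deleted, with Ccnb1 at -0.92, -0.95 and -1.09 on the log2 scale. The cycling sum was 1204, 1081 and 1083 CPM in comparison hearts against 886, 908 and 852 CPM in LIN9 KO hearts, and in the second experiment 1027, 1462 and 1567 CPM in control hearts against 797, 1027 and 1046 CPM in LIN9 KO hearts. It was 1379, 1703 and 1689 CPM in Sav1 KO hearts and 1028, 1077 and 1058 CPM in hearts lacking both. Top2a was the most abundant gene of this list.

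**Figure D5:**
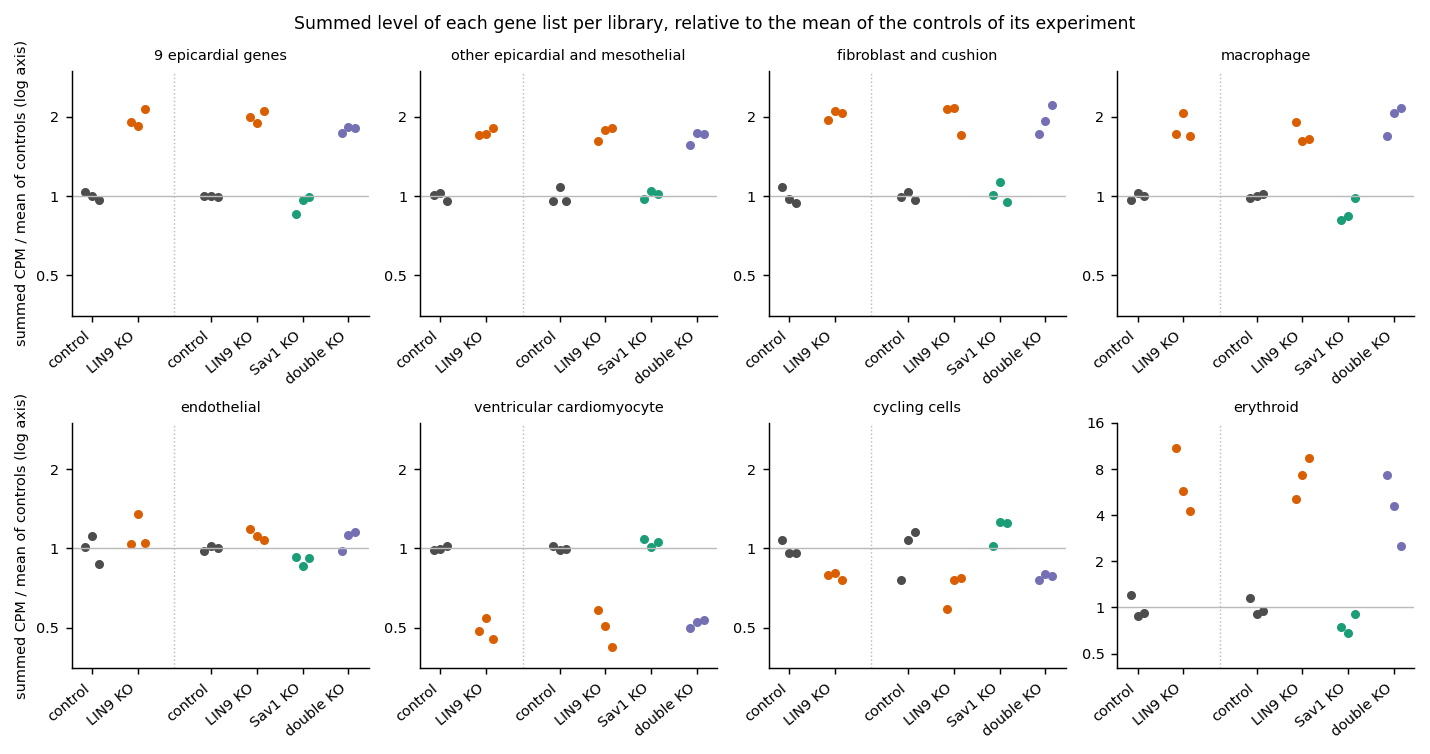
Summed level of the 9 epicardial genes and of 7 marker lists in each library, as a ratio of CPM to the mean of the comparison or control hearts of the same experiment, on a log axis. The epicardial sum of LIN9 KO hearts was 1.97 times that of comparison hearts in the first experiment, where the fibroblast and cushion sum was 2.04 and the macrophage sum 1.83 times as high. The ventricular cardiomyocyte sums moved the other way, and the erythroid sums moved furthest among the lists drawn.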

How the data were processed

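The authors deposited a table of counts per Ensembl gene for each experiment, and these counts are the values used here. Per the methods, reads were aligned to mm10 with TopHat 2.1.0 and Bowtie2, every sample was brought down to the smallest number of mappable reads, and reads were counted with summarizeOverlaps on GRCm38.p6. The overlap mode and strandedness of the counting are not named. After removal of 4 duplicate identifiers each table held 48709 genes, and 0 columns of values per sample were left unused. The authors' comparison tables of log2 fold changes, log2 CPM, p-values and FDR were not used, and 4 ChIP samples of the series were not analysed here. The experiments were fitted separately in R 4.3.3 with edgeR 4.0.16, the second as 1 fit of its 12 libraries, after TMM normalization and a filter of mean count above 1, which all 9 members passed. The test was the robust quasi-likelihood F test, with Benjamini-Hochberg adjustment over the 19752 and 17675 tested genes and a threshold of 0.05. The standard error is the log2 fold change divided by the square root of F, and 95% intervals come from the same fit. Exonic lengths are merged exons of the GENCODE annotation. Log2 CPM used a prior count of 2.

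The 9 members are named throughout, and the members and lists were chosen with earlier results of these data known. From each other list up to 4 genes with the largest log2 fold change among those past 0.05 in LIN9 loss in the first experiment or with intact Sav1, with the same sign in both and a mean of at least 1 CPM, were eligible for naming, as was the most abundant gene. The genes most like the members were taken from genes with a mean of at least 5 CPM in both experiments. Whether replicate numbers pair libraries was checked by correlating deviations from group means between groups over all tested genes. The r was 0.0267 to 0.0873 in the first experiment and, with intact Sav1 in the second, 0.0891 to 0.393, which did not reach the criterion of more than 0.1 for every pair, so the libraries were treated as not paired. Over genes with a mean count above 10, a cutoff chosen after seeing the data, the latter r was 0.217 to 0.6, above the criterion for all 3 pairs of LIN9 KO and control libraries. In the first experiment r at that cutoff was 0.181, 0.0422 and 0.166 for replicates 1, 2 and 3, with replicate 2 missing the criterion. At the same cutoff r in the second experiment was 0.0892 to 0.302 between Sav1 KO and control libraries and -0.057 to -0.019 between libraries lacking both and Sav1 KO libraries. It was -0.0989 to 0.142 between libraries lacking both and LIN9 KO libraries, and -0.0905 to 0.0649 between those lacking both and control. Pairing thus had no support in the group lacking both and is not settled for LIN9 KO and control, and the replicate block is given as an alternative. Alternatives tried were DESeq2 1.42.0 with its size factors, upper-quartile normalization, leaving out haemoglobin and mitochondrial genes, no filter, mean count above 10, a replicate block, only the 6 libraries compared, DESeq2 without its independent filtering for Sav1 loss with LIN9 deleted (added after seeing the data), column totals for CPM, and leaving out each library in turn.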

Additional observations from a re-analysis of the deposited data

Results flagged for a closer look

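C1qa, a macrophage marker, was lower in every Sav1 KO library than in control hearts where LIN9 was wild-type (log2 fold change -0.22) and higher in every library lacking both genes than in LIN9 KO hearts (0.30), a difference of 0.52 with a standard error of 0.28 that did not pass the interaction test (edgeR, Benjamini-Hochberg adjusted p = 0.783).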

How the results depend on the processing

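For the 8 members other than Tbx18, all 408 of 408 log2 fold changes on LIN9 loss in the first experiment, with intact Sav1, with Sav1 deleted and in hearts lacking both were positive under the alternatives, from 0.34 to 1.92. Their calls stayed past 0.05 in every alternative except that of Aldh1a2 with Sav1 deleted, which passed in 8 of 13 alternatives. It missed by DESeq2 (0.51, adjusted p = 0.0858) and without single libraries (0.34 to 0.70 over all alternatives, adjusted p 0.0134 to 0.234). Tbx18 in the first experiment passed by edgeR with upper-quartile normalization (0.34, adjusted p = 0.0405), no filter (0.32, 0.0297), mean count above 10 (0.33, 0.0461), the replicate block (0.31, 0.0157) and without LIN9 KO replicate 3 (0.43, 0.00297), over a range of 0.00297 to 0.205. Aldh1a2 in hearts lacking both against control passed with no filter (edgeR, adjusted p = 0.025), mean count above 10 (0.0484) and only the 6 libraries compared (0.0386), over a range of 0.025 to 0.243. Leaving out each library in turn, all genes called in the first experiment numbered 2722 to 4223 (4131 with all libraries), and 5001 with the replicate block. With intact Sav1 the block gave 4370 in place of 4103. Leaving out each library in turn, the members' median log2 fold change ranged from 0.90 to 1.15 in the first experiment, 0.98 to 1.16 for LIN9 loss with Sav1 deleted, 0.80 to 0.98 in hearts lacking both, -0.23 to -0.0465 for Sav1 loss with wild-type LIN9, -0.20 to -0.10 with LIN9 deleted and -0.0359 to 0.12 for the interaction. For Sav1 loss with wild-type LIN9 the 3 genes called by edgeR were 22 with no filter, 31 with only the 6 libraries compared, 2 with the replicate block and 0 to 2 without single libraries. With LIN9 deleted DESeq2 gave an adjusted p to 869 of 17675 genes and to 0 members, so it gives no test of them there, and it called 77 of the 869. Without its independent filtering, chosen after seeing the data, it called 11 genes and 0 members. The 2 called by edgeR were 4 with upper-quartile normalization, 10 without haemoglobin and mitochondrial genes, 309 with no filter, 84 with the replicate block, 0 with mean count above 10 or only the 6 libraries compared, and 0 to 378 without single libraries; the unadjusted counts stand in the report. For the interaction the 0 called by edgeR were 17 with no filter and 0 to 64 without single libraries. Signs turned without single libraries for values that had not passed: Tbx18 with intact Sav1 (-0.18 to 0.25), Aldh1a2 (-0.23 to 0.14), Krt19 (-0.0444 to 0.10) and Msln (-0.42 to 0.31) for Sav1 loss with wild-type LIN9, Tbx18 with LIN9 deleted (-0.13 to 0.28), and in the interaction Lrrn4 (-0.0197 to 0.24), Tbx18 (-0.0359 to 0.37), Tcf21 (-0.0086 to 0.30) and Upk1b (-0.0055 to 0.29). The summed level of control hearts of the second experiment was 344 CPM with column totals in place of 342. The cause of these differences was not tested. Each group held 3 libraries, and the median total count was 9539905 in the first experiment and 2935363 in the second.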
